A study of Mus musculus with 48 samples.

Results

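Livers of mice that lack PPARα in every cell were compared with livers of wild-type mice, both fed the control (CTRL) diet. All arrays that the sample labels assign to the genotype PPARaKO or PPARaWT and to the diet CTRL were taken, which gave 8 mice of each genotype and 16 of the 48 arrays of the series. The whole study holds 3 genotypes on the CTRL diet or a high-fat diet (HFD), with 8 mice in each of 6 groups and liver RNA of each mouse on its own Agilent array. Mice were males on the C57Bl6J background, 20 weeks old and fed their diet for 12 weeks per the labels, although the text of the study gives a shorter feeding time, and all groups were housed at thermoneutrality and killed in the fed state. The Pparα-/- mice (KO in the plots) carry a germline deletion and were bred in the study's own facility. The WT mice were bought from a commercial breeder and acclimated before the experiment, so that genotype and breeding origin cannot be told apart in this comparison. Where a difference was set beside the loss of PPARα in hepatocytes alone, the third genotype on the CTRL diet was used, Pparαhep-/- (LKO in the plots), in which Cre driven by the albumin promoter deletes the floxed gene.

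PPARα is a nuclear receptor that is activated by fatty acids and their derivatives and binds DNA as a heterodimer with a retinoid X receptor. In hepatocytes it is known as the main driver of genes for fatty acid uptake, mitochondrial and peroxisomal β-oxidation, ω-hydroxylation and ketone body synthesis, above all in fasting, and of the gene of the hormone FGF21. Its ligand-bound form is also known to restrain inflammatory genes.

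Values are quantile normalized log2 intensities, in which a difference of 1 is a doubling, and a probe was called when its adjusted p in limma was at most 0.05. The 8 mice of a group are the replicates, and a fitted difference weights the arrays, so it can depart from the difference of the group means. Of the 16 arrays, Pparα-/- replicate 3 had the fewest spots well above background, 28234 against 30387 to 34985 on the others, and an array weight of 0.419, and WT replicate 6 had the lowest weight, 0.208. Leaving both out gave 11589 called probes against 11409 with them. Of the Pparαhep-/- CTRL arrays, replicate 1 had a weight of 0.189, and leaving it out changed the Pparα-/- against Pparαhep-/- call of 4 and the Pparαhep-/- against WT call of 3 of the 142 probes named here. The hepatocyte markers matched the labelled tissue, with a summed linear intensity of 3050000 to 3240000 in WT and 3030000 to 3190000 in Pparα-/- mice over 12 genes, of which 2 were called lower, Cps1 (-0.62), of the urea cycle, and Hnf4a (-0.43), a hepatocyte transcription factor. The call of Cps1 was lost without Pparα-/- replicate 2 (-0.55, adjusted p = 0.0509) or 6 (-0.57, adjusted p = 0.0548).

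Ppara itself was read by 2 probes on chromosome 15 (mm9), whose starts lie 5083 bases apart. The first 30 of their 60 bases are given because they fix which part of the transcript was measured, and the files do not place either probe relative to the deleted exon.
A_55_P2055854, chr15:85632110-85632169: ctttgaaaacctacaagtcaaggtgtggcc
A_55_P2071596, chr15:85637193-85637252: cctgtaagctgatgaatgtaaagagttaat
The probe A_55_P2055854 read 14.03, 14.54 and 15.07 as the lowest, median and highest WT mouse and 13.53, 13.92 and 14.09 in Pparα-/- mice. The groups overlapped slightly, and the fitted difference was -0.65 ± 0.10 (standard error, adjusted p = 1.1e-06). The probe A_55_P2071596 read 12.36, 12.86 and 13.24 in WT and 11.36, 11.81 and 11.87 in Pparα-/- mice, without overlap, a difference of -1.11 ± 0.10 (adjusted p = 5.27e-13). Transcript was therefore still detected in every Pparα-/- liver, at 1.57-fold and 2.16-fold lower levels. In Pparαhep-/- mice the same probes differed from WT by -0.42 (adjusted p = 0.000887) and -0.10 (adjusted p = 0.454), and Pparα-/- lay below Pparαhep-/- by 0.23 at the first probe (adjusted p = 0.0572) and by 1.01 at the other. Without Pparαhep-/- replicate 1 the first of these was called (adjusted p = 0.027). Fewer cells of a type that express a gene and less RNA of it per cell cannot be told apart in such bulk samples.

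Of 33323 tested probes, 34.2% were called between the genotypes, 5190 higher (15.6%) and 6219 lower (18.7%) in Pparα-/- mice. By gene, with each gene read by its tested probe of highest mean signal, 6524 of 17388 were called (37.5%), 3307 higher (19%) and 3217 lower (18.5%). Most of these differences were small. The median size of a called probe was 0.40, 1175 called probes differed by at least 1, and 223 by at least 2. The 8 Pparα-/- and 8 WT mice did not overlap at 1256 called genes (7.22% of all tested), 653 higher and 603 lower. The plot of all genes shows the largest of these on both sides, from Gdpd3 at the top to Trim12a at the bottom.

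**Figure D1:**
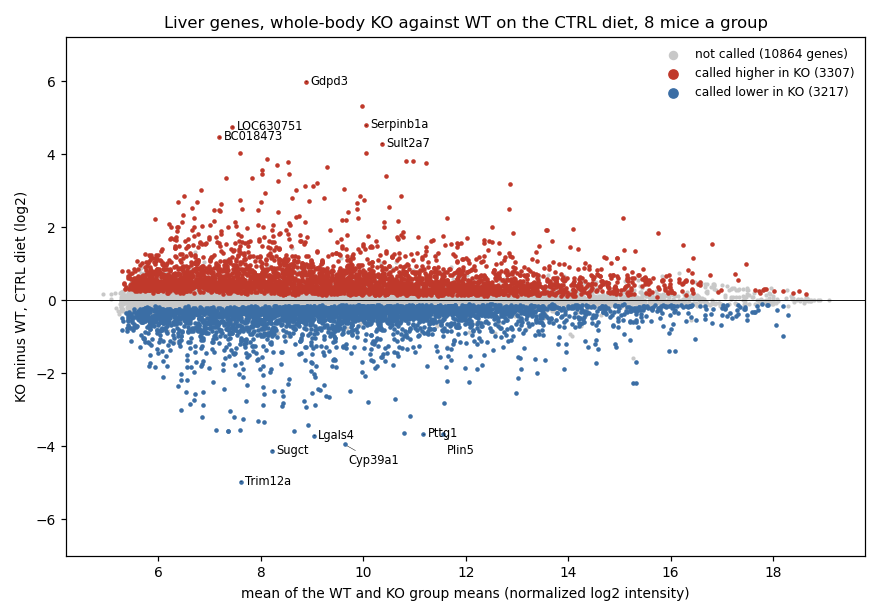
Each point is 1 gene, with the mean of the WT and Pparα-/- (KO) group means on the x axis (normalized log2 intensity) and the fitted KO minus WT difference on the CTRL diet on the y axis (log2). Red and blue mark the 3307 and 3217 genes called higher and lower in KO, and the labels name the largest differences without overlap between the mice, with Gdpd3 at 5.99 on top and Trim12a, which was not well above background in any KO mouse, at the bottom.

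Most genes of mitochondrial fatty acid oxidation were lower in Pparα-/- mice. Of 22 tested members 15 were called lower and 3 higher, with a median difference of -0.43 against 0.0046 over all genes. Slc25a20, the carrier that brings acylcarnitines into mitochondria, read 10.16, 10.37 and 10.64 in WT and 8.23, 8.59 and 8.91 in Pparα-/- mice. Every Pparα-/- mouse lay below every WT mouse, with a difference of -1.83 ± 0.14 (adjusted p = 2.5e-14). Acadvl, the very long-chain acyl-CoA dehydrogenase, read 15.62, 15.72 and 15.84 in WT and 14.56, 14.66 and 14.82 in Pparα-/- mice, again without overlap. Its difference was -1.08 ± 0.07 (adjusted p = 2.25e-17), and that of Eci2, an enoyl-CoA isomerase, was -1.33. Cpt2, which regenerates acyl-CoA inside mitochondria, changed by -1.004, and Etfdh, which passes the electrons of β-oxidation to the respiratory chain, by -1.12. Crat, the carnitine acetyltransferase, fell by 1.32, although Pparα-/- replicate 3 read 11.91 where the next highest read 10.02. The α subunit of the trifunctional protein, Hadha, moved less, by -0.44.

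The gene of the rate-limiting enzyme of the pathway did not move with them. Cpt1a, which commits long-chain fatty acids to mitochondrial entry, read 14.29, 14.72 and 15.41 in WT and 13.50, 14.64 and 15.10 in Pparα-/- mice, and the groups overlapped over most of their range (-0.13, adjusted p = 0.553). Among the members called higher were Acad10, an acyl-CoA dehydrogenase family member, at 1.61 without overlap, and Acadm, the medium-chain enzyme, at 0.31. The call of Acadm was lost on leaving out WT replicate 1 or 3 or Pparα-/- replicate 6 or 7, with a highest adjusted p of 0.141.

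In peroxisomal oxidation 10 of 21 tested genes were called lower and 1 higher, with a median of -0.23. Ech1, an isomerase of unsaturated fatty acid breakdown, read 14.21, 14.36 and 14.75 in WT and 11.91, 12.49 and 13.12 in Pparα-/- mice. No Pparα-/- mouse reached the WT range, and the difference was -2.01 ± 0.15 (adjusted p = 4.56e-15). Abcd2, a peroxisomal fatty acid transporter, was well above background in 6 of 8 WT and 0 of 8 Pparα-/- mice and was at least 2.19-fold lower (adjusted p = 8.55e-07). The membrane protein gene Pxmp4 (-1.35), Hsd17b4 (-0.69), the multifunctional enzyme type 2, and Pex11a (-0.66), a factor of peroxisome proliferation, were lower as well. Acox2, the branched-chain and bile acid oxidase, was the member called higher, at 1.17 without overlap. Ehhadh (-0.13, adjusted p = 0.632) and Acaa1b (-0.40, adjusted p = 0.28), which are usually counted among the most responsive PPARα targets, did not pass the test on this diet.

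The ω-hydroxylases of the Cyp4a family, which oxidise the far end of fatty acids, differed among themselves. Cyp4a10 read 8.58, 10.96 and 11.82 in WT and 6.38, 7.12 and 9.76 in Pparα-/- mice, so that the groups overlapped in part, with a difference of -2.88 ± 0.57 (adjusted p = 8.86e-05). Cyp4a31 moved by nearly the same amount, -2.72, and since these genes are close in sequence a probe of either may also read the other. Cyp4a14 was near background in both groups, well above it in 4 WT mice and 1 Pparα-/- mouse, and its difference of -0.43 did not pass (adjusted p = 0.475). Over the 13 tested members of the list 2 were called higher and 2 lower, near the shares over all genes, the lower being Cyp4a10 and Cyp4a31.

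Acyl-CoA thioesterases, which release fatty acids from coenzyme A, were called higher at 3 of 14 and lower at 2, near the shares over all genes (19% higher and 18.5% lower), with a median of 0.37. Acot11 read 8.21, 9.30 and 10.85 in WT and 11.44, 11.75 and 12.51 in Pparα-/- mice. No Pparα-/- mouse fell within the WT range, and the difference was 2.17 ± 0.23 (adjusted p = 1.68e-10). Acot6 (1.57) was well above background in 4 WT and 8 Pparα-/- mice, the mitochondrial Acot2 (1.14) lost its call on leaving out WT replicate 1 or 2, with a highest adjusted p of 0.068, and the peroxisomal Acot8 was lower (-0.66). The cytosolic Acot1 reached 15.04 in Pparα-/- replicate 3 and 12.59 in the next mouse, and its difference of 0.90 did not pass (adjusted p = 0.178).

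Of 10 ketogenesis genes 1 was called lower and 4 higher, with a median of 0.26. Bdh2, a cytosolic hydroxybutyrate dehydrogenase, was higher by 0.71.

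Genes of lipid droplets and lipolysis fell more often than they rose, with 9 of 19 called lower, 1 higher and a median of -0.58. Plin5, a droplet coat protein that links droplets to mitochondria, lies on chromosome 17 (probe at 56251025 to 56251084, mm9) and read 13.07, 13.47 and 13.66 in WT against 9.19, 9.59 and 10.33 in Pparα-/- mice. This was a 12.7-fold lower level without overlap (-3.66 ± 0.34, adjusted p = 6.76e-12). Fitm1, of droplet formation, was lower by -2.48 and Plin2, the main droplet coat protein of hepatocytes, by -0.64, both with overlap. Cidec, which fuses droplets, and Plin4 had a wide spread, with Pparα-/- replicate 2 at 10.32 and 11.27 against at most 7.94 and 8.52 in the other Pparα-/- mice. The differences were -1.80 for Cidec (adjusted p = 0.0273) and -1.64 for Plin4 (adjusted p = 0.0102). Cidec changed by -1.53 and lost its call without the pair of arrays that stood apart, as it did without WT replicate 4 or 8 (highest adjusted p of 0.0749).

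Of 24 other genes reported as PPARα targets, 11 were called lower and 7 higher. Fgf21, which encodes the fasting hormone, read 7.24, 8.90 and 10.23 in WT and 4.79, 5.22 and 6.23 in Pparα-/- mice, without overlap. It was well above background in 8 WT mice and 1 Pparα-/- mouse, and the difference was -3.57 ± 0.43 (adjusted p = 5.59e-09). Vnn1, a pantetheinase, read 8.405, 9.61 and 10.22 in WT and 5.18, 5.57 and 7.45 in Pparα-/- mice (-3.57 ± 0.39, adjusted p = 3.83e-10), again without overlap and with 3 Pparα-/- mice above background. The desaturase gene Fads2 (-1.38), the glycerol phosphate dehydrogenase Gpd1 (-1.21) and Txnip (-1.27), a glucose-responsive thioredoxin inhibitor, were each lower without overlap, and Angptl4, an inhibitor of lipoprotein lipase, was lower by -1.09 with overlap. Pdk4, the kinase that shuts down pyruvate dehydrogenase and a textbook PPARα target, was higher instead, at 6.94, 7.95 and 8.86 in WT and 9.03, 9.37 and 11.35 in Pparα-/- mice (1.62 ± 0.36, adjusted p = 0.000379). Creb3l3, a liver transcription factor that acts with PPARα on Fgf21, moved by -0.26.

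Uptake and activation genes were split, with 6 of 17 called lower and 2 higher. Fabp5, a fatty acid binding protein, was lower by -1.43 in the fit, with group means of 14.37 in WT and 13.53 in Pparα-/- mice. Its Pparα-/- mice all lay within the WT range. Acsl3 (-0.84) and Acsl4 (-0.55), which activate fatty acids to acyl-CoA, were lower too. The fatty acid translocase gene Cd36 was higher by 0.93, a call lost on leaving out WT replicate 1, 2 or 3 (highest adjusted p of 0.0814). Fabp1, the abundant liver binding protein, moved by only -0.16 (adjusted p = 0.0275), a call lost on leaving out WT replicate 3, 4 or 5 or Pparα-/- replicate 5 (highest adjusted p of 0.0949). Of the receptor's family and partners, Ppargc1a, the coactivator of fasting metabolism, was lower by -0.83, and Rxrg (0.80), a retinoid X receptor, was higher. Rxra (-0.07, adjusted p = 0.414), the partner receptor, Ppard (-0.02, adjusted p = 0.932) and Pparg (0.50, adjusted p = 0.132) did not pass.

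**Figure D2:**
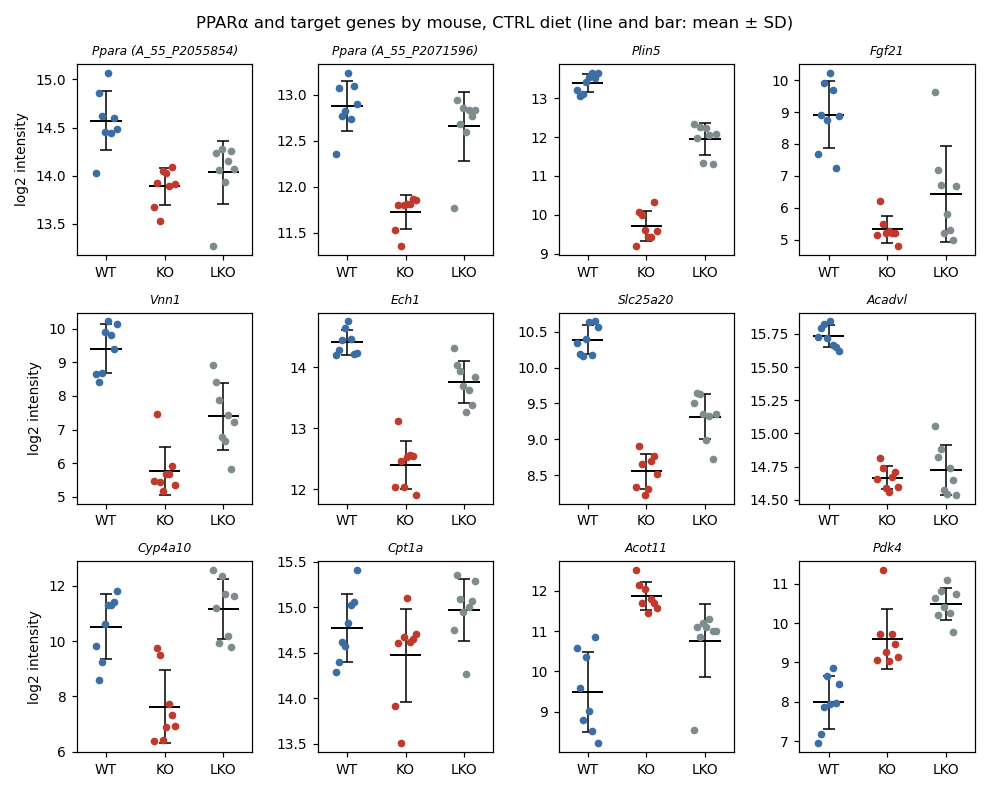
Normalized log2 intensity (y axis) of the 2 Ppara probes and 10 genes of fatty acid metabolism in each of the 8 WT, 8 Pparα-/- (KO) and 8 Pparαhep-/- (LKO) mice on the CTRL diet, with the mean as a line and the SD as a bar. KO mice lie below all WT mice for Plin5, Fgf21, Vnn1, Ech1, Slc25a20 and Acadvl, overlap them for Cyp4a10 and Cpt1a, and lie above them for Acot11 and Pdk4.

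**Figure D3:**
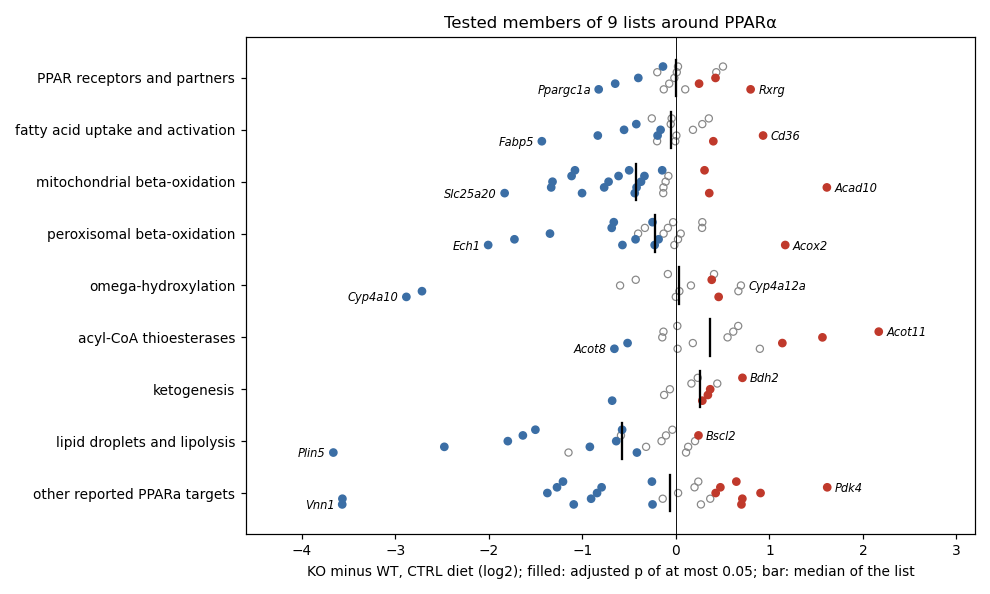
Fitted KO minus WT difference on the CTRL diet (x axis, log2) of each tested member of 9 gene lists (y axis). Filled points passed an adjusted p of 0.05, black bars mark list medians, and the names mark most of the extremes of the lists, from Plin5 at -3.66 to Acot11 at 2.17.

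Promoter sequence was read beside these lists because PPARα acts by binding DNA. The binding repeat of PPARα was searched as AGGNCANAGGNCA, a repeat of a loose half-site around a free base, on both strands from 250 bases before to 50 bases after each RefSeq gene start (GRCm38.p6). It was found in 122 of 27025 promoters (0.451%), in 51 of 12289 tested genes (0.415%), in 12 of 2383 called higher (0.504%) and in 6 of 2362 called lower (0.254%). The strict form AGGTCANAGGTCA, which is contained in the first, was found in 13 of 27025 (0.0481%), among them 3 genes called higher, Igsf23, Apol7c and Srp54a, and 0 called lower. Of the called genes of the target lists, Fabp1 held the match. The windows below show the match in capitals with 8 bases on either side, on the strand of the gene, for Fabp1 and Gdf15 and for the 3 genes with the strict form, 2 of which (Apol7c and Srp54a) were named only for it.
Fabp1, chr6:71199804-71199832: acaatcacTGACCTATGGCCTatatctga
Gdf15, chr8:70632491-70632519: gaccccacAGGTCAGAGGCCAcccagcag
Igsf23, chr7:19950795-19950823: tatcgagtTGACCTTTGACCTcagtcccg
Apol7c, chr15:77533469-77533497: agaatgtcAGGTCAAAGGTCActctcttg
Srp54a, chr12:55080370-55080398: gaacactaAGGTCAAAGGTCAgctccagc
Igsf23 differed by 3.88, Gdf15 by 1.73, Apol7c by 0.77, Srp54a by 0.24 and Fabp1 by -0.16. The 250 bases before the start of Plin5 and Fgf21, the target genes with the largest falls that the promoter table covers, hold 0 matches of either form and are shown on the gene's strand.
Plin5, chr17:56117549-56117798: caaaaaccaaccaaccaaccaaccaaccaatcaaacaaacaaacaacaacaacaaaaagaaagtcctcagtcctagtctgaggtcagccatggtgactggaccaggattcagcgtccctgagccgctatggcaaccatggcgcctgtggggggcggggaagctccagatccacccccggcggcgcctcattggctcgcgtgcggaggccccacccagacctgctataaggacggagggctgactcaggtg
Fgf21, chr7:45615491-45615740: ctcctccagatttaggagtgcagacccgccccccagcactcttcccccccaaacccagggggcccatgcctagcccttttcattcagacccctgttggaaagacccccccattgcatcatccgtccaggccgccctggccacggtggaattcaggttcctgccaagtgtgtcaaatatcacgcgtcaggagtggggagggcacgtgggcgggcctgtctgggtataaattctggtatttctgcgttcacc

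The 12 largest rises among genes without overlap ran from 3.64 to 5.99. Gdpd3, a lysophospholipase D, read 5.36, 5.88 and 6.29 in WT, where 6 of 8 mice were above background, and 11.60, 11.87 and 12.32 in Pparα-/- mice. This was a 63.4-fold higher level (5.99 ± 0.31, adjusted p = 2.32e-20). Serpinb1a, an inhibitor of neutrophil proteases, read 6.69, 7.81 and 8.04 in WT and 11.65, 12.61 and 13.74 in Pparα-/- mice, 27.6-fold higher (4.79 ± 0.32). Both were high in every Pparα-/- mouse. LOC630751 was not well above background in any WT mouse and was at least 17.9-fold higher, BC018473 (4.46) and 4930435C17Rik (4.04) were above it in 1 WT mouse each, and Sult2a7, a sulfotransferase of steroids and bile acids, was higher by 4.29. The other rises were those of 2410089E03Rik (4.02), Igsf23 (3.88), the proton-gated channel gene Asic5 (3.81), Lrtm1 (3.80), AA465934 (3.70) and Gm31025 (3.64). At 2410089E03Rik a second probe differed by 5.21 and the remaining 2 by -0.03 and -0.12. Sult1e1, the oestrogen sulfotransferase, is named here after its values were seen, since its difference of 5.31 was exceeded by that of Gdpd3 alone, but 1 WT mouse at 11.72 overlapped the Pparα-/- mice, whose lowest was 11.30.

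The 12 largest falls had fitted differences of -3.57 and beyond. Trim12a, a member of the TRIM family, lay between 9.75 and 10.64 in WT and between 4.88 and 5.59 in Pparα-/- mice, in which it was nowhere well above background, and was at least 22.8-fold lower (adjusted p = 9.53e-35). Sugct, an enzyme of glutarate metabolism, read 9.21, 10.31 and 10.56 in WT and 5.89, 6.21 and 6.57 in Pparα-/- mice (-4.12 ± 0.11). Pttg1, the securin of mitosis, read 12.77, 13.02 and 13.17 in WT and 8.50, 9.38 and 9.75 in Pparα-/- mice (-3.68 ± 0.10). In each of these the groups were far apart. Cyp39a1, an oxysterol hydroxylase of bile acid synthesis, was lower by -3.95, the lectin gene Lgals4 by -3.71, the mucosal peptide gene Tff3 by -3.64, Gm3893 by -3.58 and Olfr1535 by -3.58. Gm3893 and Olfr1535 were above background in 1 and 3 Pparα-/- mice. Rbbp9, a serine hydrolase, spread from 4.93 to 9.56 among Pparα-/- mice, and while this probe differed by -3.58, its other probe differed by 0.29 (adjusted p = 0.0179). Plin5, Fgf21 and Vnn1 complete the 12. Of 2009 genes with more than 1 called probe, 202 had probes called in opposite directions, and among the genes named here these were Rbbp9 and Xaf1.

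The largest differences were also set beside mice that lack PPARα in hepatocytes only. Both comparisons use the same 8 WT mice, so their values are given side by side, and the test is the direct difference between the knockouts. A direct difference that did not pass does not show equal levels. Fgf21 differed from WT by -3.57 in Pparα-/- and -2.85 in Pparαhep-/- mice, and the direct difference of -0.72 between the knockouts did not pass (adjusted p = 0.183). Serpinb1a likewise stood at 4.79 and 4.42 (direct difference 0.37, adjusted p = 0.379) and Acadvl at -1.08 and -1.05 (direct difference -0.03, adjusted p = 0.767). Partly shared were Gdpd3 (5.99 and 4.28), Vnn1 (-3.57 and -2.12), Plin5 (-3.66 and -1.48) and Sult2a7 (4.29 and 2.39), and each direct difference was called. In contrast, Sugct stood at -4.12 in Pparα-/- and 0.06 in Pparαhep-/- mice, Pttg1 at -3.68 and 0.04 and BC018473 at 4.46 and -0.03. Trim12a, at least 22.8-fold lower in Pparα-/- mice, differed from WT by a called 0.72 in Pparαhep-/- mice. Cyp4a10 belonged here too, at -2.88 and 0.71, with a direct difference of -3.59 (adjusted p = 3.8e-07). Its value in Pparαhep-/- mice was not called against WT (adjusted p = 0.38). The knockouts differed directly at 11 of the 12 rises and 10 of the 12 falls. Of all genes 27.7% were called between them, and of the genes called between Pparα-/- and WT mice 46.6%, and these 24 were chosen for their size in the same Pparα-/- mice. Without Pparαhep-/- replicate 1 the direct difference of Lrtm1 (0.90) lost its call (0.81, adjusted p = 0.0512) and that of Gm3893 gained one (-1.20, adjusted p = 0.0479).

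**Figure D4:**
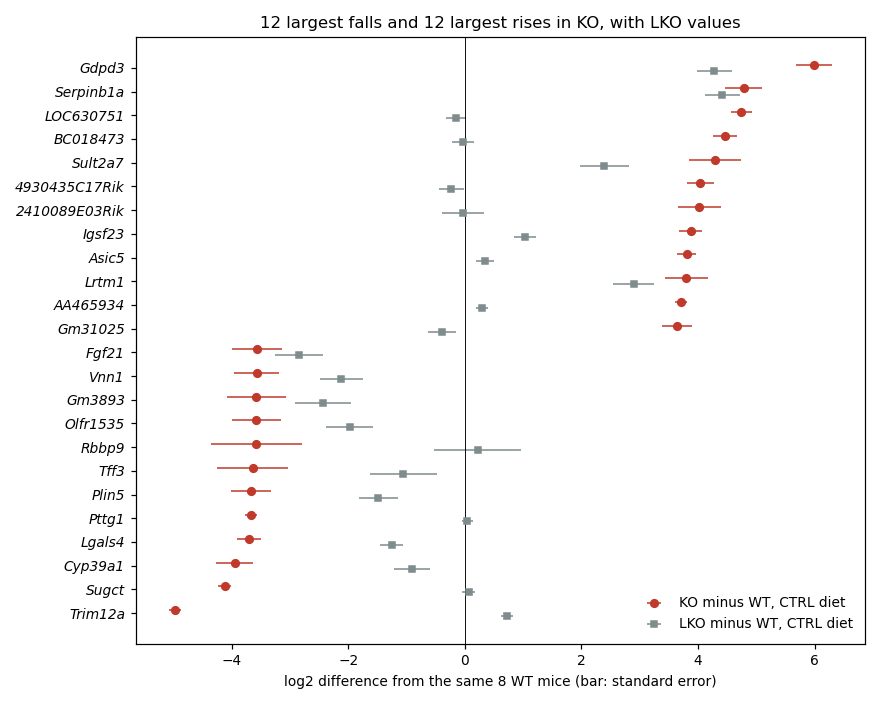
Fitted difference from the same 8 WT mice on the CTRL diet (x axis, log2, bars standard errors) in Pparα-/- (KO, circles) and Pparαhep-/- (LKO, squares) mice for the 12 largest rises and 12 largest falls in KO without overlap. LKO mice lie near KO mice for Serpinb1a (4.42 and 4.79) and Fgf21 (-2.85 and -3.57) and near 0 for BC018473, Pttg1 and Sugct. The points of Trim12a in KO mice and of LOC630751 rest on signals not well above background in 1 of the groups compared and are fitted values, not bounds.

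Calls among lipid synthesis genes were mostly in the direction of lower levels in Pparα-/- livers. Of 25 genes of lipogenesis and desaturation 13 were called lower and 0 higher, with a median of -0.54. Without the pair of arrays that stood apart these counts were 13 and 0 again. Pnpla5, an acylglycerol lipase regulated with lipogenesis, read 6.21, 8.73 and 11.86 in WT and 5.34, 5.91 and 9.99 in Pparα-/- mice, of which 4 were above background (-3.19 ± 0.54, adjusted p = 6.82e-06). The groups overlapped, and the highest Pparα-/- mouse was replicate 3. Me1, which supplies NADPH, was lower by -1.89, the elongase gene Elovl6 by -1.76 and the desaturase gene Scd3 by -1.68. In Pparαhep-/- mice 6 of the 25 genes were higher than in WT and 3 lower, where 13.8% and 13.2% of all genes were, and Pparα-/- lay below Pparαhep-/- mice at 17, where 13.7% of all genes did. Of 24 genes of cholesterol synthesis 9 were called lower and 2 higher, with a median of -0.32. Sc5d, a sterol desaturase, read 14.59, 14.71 and 15.16 in WT and 12.61, 13.08 and 13.81 in Pparα-/- mice, without overlap (-1.89 ± 0.16, adjusted p = 1.77e-13). Hmgcs1 (-0.99) and Fdps (-1.11), an earlier and a later step to farnesyl pyrophosphate, were lower too, both with overlap. Pparαhep-/- mice were higher than WT at 8 of the 24 and lower at 2, and Pparα-/- lay below Pparαhep-/- at 18. In glucose metabolism 10 of 32 genes were called lower and 3 higher. Pfkfb3 (-1.45), a regulator of glycolysis, and Pck2 (-1.12), the mitochondrial phosphoenolpyruvate carboxykinase, were among those lower, both with overlap.

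Cytochromes P450 of foreign compounds and their receptors rose more often than they fell, with 21 of 46 called higher and 7 lower. Cyp2c39 was well above background in 0 of 8 WT and 8 of 8 Pparα-/- mice, at least 4.89-fold higher (adjusted p = 1.59e-19), and Cyp2g1 was higher by 2.06 without overlap. Cyp3a11, the main drug-metabolising P450 of mouse liver, and its neighbour Cyp3a16 were lower by -1.86 and -1.79, and such close paralogues can share probe signal. Among conjugation enzymes 10 of 36 were called higher and 2 lower, with Sult1b1, a sulfotransferase of phenols (1.54), and Tpmt, a thiopurine methyltransferase (1.54), higher without overlap beside Sult2a7. Carboxylesterases were called higher in 6 and lower in 1 of 15, with Ces1g at 1.57 and Ces4a at -1.24. Bile acid genes were called higher at 5 of 24 and lower at 7, where 19% and 18.5% of all genes were, with the export pumps Abcc3 at 1.49 and Abcc2 at -0.84. Of the genes of amino acid breakdown and the urea cycle 17 of 51 were higher and 7 lower, and both branched-chain genes named by the rule, Bckdhb (1.16) and Bcat2 (1.103), were higher without overlap.

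Acute phase genes were called higher more often than lower. Of 30 tested 13 were higher, 1 lower and 16 not called, with a median of 0.26, and Pparα-/- lay above Pparαhep-/- mice at 12 and below at 0, where 13.9% of all genes lay above. Orm3, an orosomucoid, read 7.29, 8.41 and 11.56 in WT and 11.62, 12.10 and 12.67 in Pparα-/- mice, just without overlap (3.41 ± 0.48, adjusted p = 2.17e-07). Lcn2, the siderophore-binding lipocalin, read 8.59, 11.02 and 15.41 in WT and 12.03, 14.30 and 15.58 in Pparα-/- mice, and the groups overlapped over a wide range (3.19 ± 0.71, adjusted p = 0.000374). Hamp2, a hepcidin, was higher by 1.95 although Pparα-/- replicate 8, at 9.65, lay below every WT mouse, and Il1rn, the interleukin 1 antagonist, was higher by 1.58. Complement and coagulation genes were called higher in 14 and lower in 3 of 39. Of 35 genes of NF-kappa B, TNF and chemokine signalling 13 were higher and 3 lower, among them the chemokines Ccl9 (1.84, without overlap), Cxcl14 (1.91) and Ccl5 (1.18) and the receptor Ccr2 (1.24), which was above background in 4 WT and 7 Pparα-/- mice. Antigen presentation genes were higher in 11 and lower in 2 of 28, with the class II genes H2-Eb1 (1.29) and H2-Aa (1.28) higher and the class I gene H2-Q1 lower (-1.25). Without array weights 4 of the 28 were higher and 3 lower.

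Markers of other liver cells were read beside these genes. Over all genes 19% were called higher and 18.5% lower. Of 14 genes of Kupffer cells and macrophages 5 were called higher and 1 lower, and their summed intensity ranged from 29500 to 84500 in WT and from 36500 to 113000 in Pparα-/- mice. The higher ones were Timd4 (1.13), of resident Kupffer cells, without overlap, Adgre1 (0.91), Csf1r (0.78), C1qb (0.76) and Lyz2 (0.94), and the integrin gene Itgam was lower (-0.43). Without WT replicate 1 the calls of C1qb (0.64, adjusted p = 0.0539) and Lyz2 (0.73, adjusted p = 0.114) were lost, and that of Lyz2 was also lost without WT replicate 5 or 7 or Pparα-/- replicate 1, 2, 5 or 6. Lyz2 differed by -0.09 within the first and 1.44 within the second wash batch. Markers of endothelial cells were called higher in 4 and lower in 1 of 9 (sum 12000 to 18300 in WT and 14800 to 23500 in Pparα-/- mice), with Stab2 of sinusoidal endothelium (1.05) and Vwf (0.96) higher without overlap. Lymphocyte markers were higher in 4 and lower in 1 of 12, with a sum of 13400 to 24300 in WT and 9220 to 17400 in Pparα-/- mice. Stellate cell markers were higher in 2 of 8, neutrophil markers lower in 1 of 10, and markers of lipid-associated macrophages called in 0 of 7. Matrix genes were higher in 6 of 29, near the share over all genes. This count was 2 without array weights and 9 without the pair of arrays that stood apart. Red cell genes were higher in 2 of 7, Hbb-b2 (2.501) and Alas2 (0.88), both without overlap. Cholangiocyte markers summed to 1740 to 35900 in WT and 729 to 1550 in Pparα-/- mice, a sum carried by Tff3, and to 532 to 2290 and 482 to 580 without it. Of the 7 genes 2 were lower, Tff3 and the keratin gene Krt7 (-0.62), while Epcam (-0.46, adjusted p = 0.127) and Krt19 (-0.58, adjusted p = 0.0669) did not pass. White adipocyte markers were lower in 3 of 6, Cidec, Lipe and Pnpla2, which hepatocytes also express, and summed to 54000 to 163000 and 93000 to 144000, while Adipoq and Plin1 did not pass the filter, and 1 of 5 tested markers of the exocrine pancreas was higher, Amy2a5 (0.48). Whether a shift in cell types has a part in the higher levels of immune genes was not tested.

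Of the interferon-stimulated genes 6 of 40 were called higher and 8 lower in Pparα-/- than in WT mice, near the shares over all genes (19% and 18.5%). Without the pair of arrays that stood apart 8 were higher and 5 lower. The knockouts parted here, since 27 of the 40 were called higher in Pparαhep-/- than in WT mice and Pparα-/- lay below Pparαhep-/- mice at 27, against 13.8% and 13.7% of all genes. Besides Trim12a, its neighbour in the TRIM family Trim34a was lower (-2.09, without overlap), and Mx2, an antiviral GTPase, was higher (1.61). At Xaf1 the brighter probe was lower by -0.98 and the other higher by 5.19, each called.

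Of the growth arrest genes, Cdkn1a, the cell cycle inhibitor p21, read 5.62, 6.27 and 9.66 in WT, where 5 mice were above background, and 7.92, 10.38 and 11.35 in Pparα-/- mice. The groups overlapped in part, and the difference was 3.77 ± 0.55 (adjusted p = 3.57e-07). Ccng1, a cyclin of the p53 response, was higher by 1.598 without overlap. The list of 26 p53 and cell cycle genes had 7 higher and 5 lower, where 19% and 18.5% of all genes were. Stress genes were split, since 11 of 30 genes of endoplasmic reticulum and integrated stress were lower, such as the chaperone cofactor Dnajc3 (-1.07), and 4 higher, such as the stress hormone Gdf15 (1.73) and Ddit4 (1.66), an inhibitor of mTOR. The metallothioneins Mt2 (2.25) and Mt1 (1.85) were higher with wide overlap. In the growth hormone axis Socs2, a feedback inhibitor, was lower (-1.87) and Igfbp2 was lower (-1.20), while Igfbp3 was higher (1.64), and the latter pair did not overlap. Of 22 genes of this axis 4 were higher and 5 lower, near the shares over all genes, or 3 lower without Pparα-/- replicate 6. Ribosomal protein genes were lower in 30 and higher in 4 of 76, by a median of -0.10, and the largest fall was that of Rps13, at 15.39, 15.47 and 15.72 in WT and 14.19, 14.26 and 14.56 in Pparα-/- mice (-1.19 ± 0.04, adjusted p = 8.7e-26).

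Several of these counts differed between fits within each wash batch, which held 4 mice of either group. Of 33323 tested probes 7263 were called in the first batch and 6348 in the second. A difference between the batches was not tested. Ribosomal protein genes were called lower in 28 in the first and 4 in the second batch, cholesterol synthesis genes lower in 13 and 2, and acute phase genes higher in 10 and 3. The immune lists ran the other way, with 3 and 8 antigen presentation genes and 3 and 14 genes of NF-kappa B, TNF and chemokines called higher, as did matrix genes, with 1 and 6. Mitochondrial oxidation genes were called lower in 11 and 12. The plain differences of the batch means parted at H2-Aa (0.32 and 1.61), H2-Eb1 (0.31 and 1.65), Ccr2 (0.35 and 1.53) and C1qb (0.22 and 0.97), where the difference was larger in the second batch. Scd3 (-0.43 and -2.03) and Cps1 (-0.22 and -0.84) differed more in the second and Hmgcs1 (-1.52 and -0.32) more in the first, and Hamp2 stood at 3.50 and 1.09. Of all called probes 11266 of 11409 had the same sign in both batches, but they were called on these same mice, which favours such agreement.

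**Figure D5:**
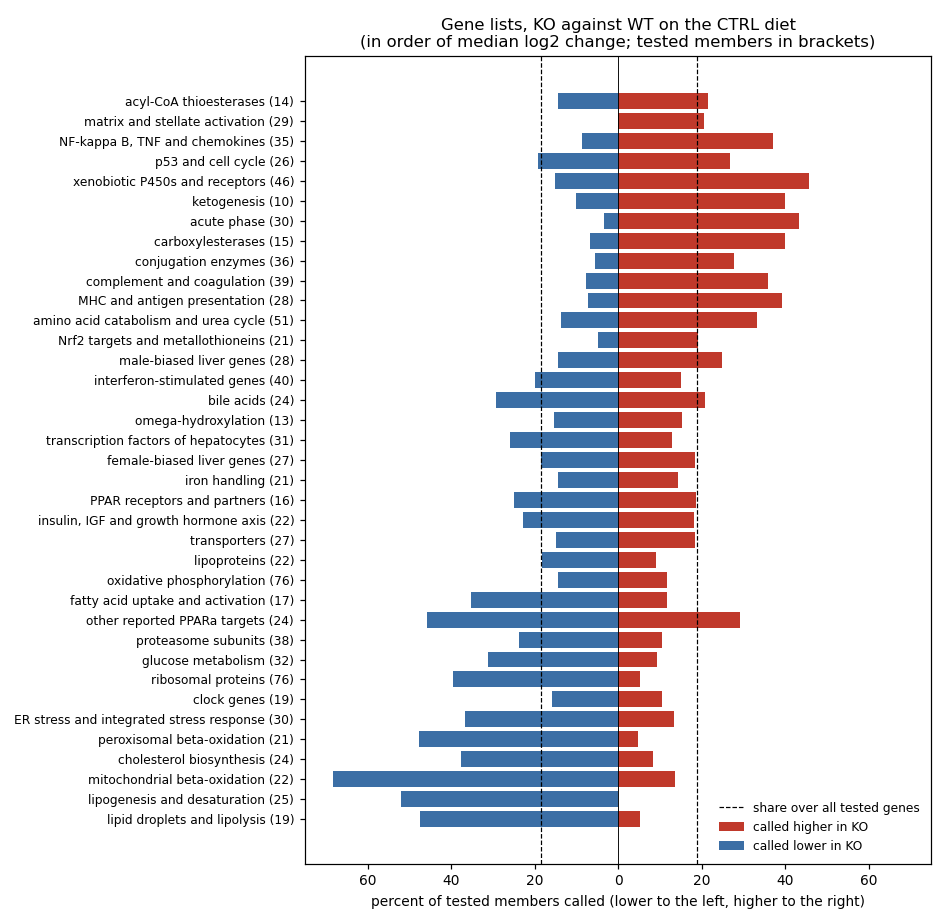
Percent of the tested members of each gene list (y axis, number tested in brackets, lists with 10 or more) that were called lower (to the left) and higher (to the right) in KO against WT mice on the CTRL diet (x axis). Dashed lines mark the shares over all genes, 18.5% lower and 19% higher. Lists of β-oxidation, lipogenesis and lipid droplets reach well past the line on the left. Others pass it too, among them ribosomal proteins, cholesterol synthesis and endoplasmic reticulum stress.

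Because the WT mice came from another colony, 7 tested genes known to differ between C57BL/6 substrains or colonies were read as well. Wdfy1 read 8.61, 9.22 and 9.55 in WT and 10.73, 11.01 and 11.18 in Pparα-/- mice, without overlap (1.76 ± 0.09), and did not differ between Pparαhep-/- and WT mice by a called amount (-0.08, adjusted p = 0.548). Nnt, the proton-pumping transhydrogenase that is disrupted in C57BL/6J mice, was higher by 1.59 at its brightest probe, by 0.59 at another and differed by -0.08 at the third. At the brightest probe it was higher in Pparαhep-/- than in WT mice too (0.47, adjusted p = 0.0345). Cyfip2 was higher (1.11), and Nlrp12, above background in 1 Pparα-/- mouse, was lower (-0.83), as was Entpd4 (-0.25). Over the 7 genes 3 were called higher and 2 lower, and in Pparαhep-/- mice 2 were called higher than in WT and the other 5 were not called. On chromosome 15, of the 512 tested probes within 10 Mb of Ppara, 40.2% were called and 8.59% were called without overlap, against 34.2% and 6.13% on the whole array. Within 5 Mb the called share was 35.5%, and within 20 Mb it was 37.1%. Chromosome 7, which carries Gdpd3 and Fgf21, had the highest share of called probes, 39.0%, and 9.51% without overlap, and chromosome 4 held 28 of the called probes without overlap that differed by at least 2. The part of colony or of DNA linked to the deleted gene in these differences was not tested.

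The genotype difference was measured again on the HFD in separate mice, which allows a test of whether it depended on the diet. Of all genes 15.7% differed between diets in this respect. Among the 12 largest rises, all 12 were also called higher on the HFD and 4 differed in size, and among the 12 falls 11 were called lower again and 3 differed. Of all genes tested 26.0% were called higher and 23.3% lower on the HFD, and of all genes called on the CTRL diet 61.3% were called there with the same sign and 23.6% differed between diets. The 24 genes were picked for their size on the CTRL diet, and the HFD mice are other animals. Cyp39a1 stood at -3.95 on the CTRL diet and -0.41 on the HFD (difference -3.54), Fgf21 at -3.57 and -0.92 (difference -2.65) and Sult2a7 at 4.29 and 0.92 (difference 3.36). Cyp4a14 was the reverse case, at -0.43 on the CTRL diet and -2.39 on the HFD (difference 1.96), as was Fitm1, at -2.48 and -4.28 (difference 1.81). Socs2 stood at -1.87 and 0.51 (difference -2.37). Ribosomal protein genes, of which 30 of 76 were lower and 4 higher on the CTRL diet, were called higher at 60 and lower at 3 on the HFD. At 65 of them the genotype difference differed between diets. Slc25a20 (-1.83 and -1.89), Acadvl (-1.08 and -1.01) and Eci2 (-1.33 and -1.42) showed similar values on both diets, and their diet differences of 0.05, -0.07 and 0.09 were not called.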

How the data were processed

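Liver RNA of each mouse was labelled with Cy3 and hybridised to a 1-colour Agilent mouse array. The authors deposited scanner output with median spot intensities, made with Agilent Feature Extraction 10.10.1.1, and a table of log2 values that were filtered, corrected for the wash batch and quantile normalized. Probe positions in the files are on mm9. Here the median intensities were taken to log2, flagged outlier spots were removed and spots of a probe were averaged. A probe entered the tests if any group had 4 or more of its 8 arrays well above background (33323 of 56605 probes), and the 48 arrays were quantile normalized.

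Differences came from limma 3.58.1 in R 4.3.3, with group means, the wash batch as a covariate and array weights, and p-values were adjusted over all tested probes by the Benjamini-Hochberg method, with a threshold of 0.05. The method was tested on simulated data. Arrays of all genotypes and both diets were fitted together, so each standard error and p-value rests on a spread pooled over all groups. Pparαhep-/- mice and mice on the HFD therefore contribute to this spread. With only the 16 arrays of the comparison, 10610 probes were called between Pparα-/- and WT mice, against 11409 in the main fit. Nothing in the labels ties mice to litters or cages, so the spread is that between single mice, and the number of arrays limits the precision. Summed marker levels are sums of normalized values taken back to a linear scale. A bound ("at least") sets the bright group against the lowest signal among probes above background on the arrays of the dim group.

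Genes named are the Ppara probes, the 12 largest rises and 12 largest falls without overlap, up to 4 called members of each list with the largest size, members of the PPARα target lists, and called cell type markers. Some genes that this rule takes are not reported here. Members and lists were chosen with earlier results of these data known. RefSeq promoters (GRCm38.p6) were matched by symbol. Alternatives changed the signal, background correction, filter, weights, batch terms, arrays and a replicate block. Figures were drawn with matplotlib 3.10.9.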

Additional observations from a re-analysis of the deposited data

Results flagged for a closer look

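In 34 of 284 sets of 8 mice, 1 mouse stood apart from the other 7 of its group, by a gap to its nearest neighbour of more than 0.526 of the whole range. Chance gives such a gap in about 1 in 20 sets. Pparα-/- replicate 3, the array with the fewest spots above background among the 16, accounted for 14 of them. It was the highest for Cyp4a14 (gap share 0.819), Pnpla5 (0.79), Ppard (0.718), Pdk4 (0.703), Crat (0.701), Ehhadh (0.645), Acsl3 (0.619), Acot2 (0.603), Acot1 (0.581) and Olfr1535 (0.571) and the lowest for Abcc2 (0.614), Rxra (0.578), Igsf23 (0.546) and Pttg1 (0.529). Leaving this mouse out ended the call of 0 of the 142 named probes. Pparα-/- replicate 2 was the highest for Vnn1 (0.683), Cidec (0.636), Plin2 (0.579), Pck2 (0.539) and Plin4 (0.529) and the lowest for Igfbp2 (0.594). Pparα-/- replicate 8 was the lowest for Hamp2 (0.769), Itgam (0.739) and Txnip (0.61), and replicate 4 the highest for Trim12a (0.62).

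Of the WT mice, replicate 6, which had the lowest array weight, was the lowest for Sugct (0.76), Alas2 (0.726), Dnajc3 (0.604) and Olfr1535 (0.589) and the highest for Pck2 (0.584). Single values stood apart for Nlrp12 (0.602, replicate 7), 4930435C17Rik (0.587, replicate 4), Angptl4 (0.584, replicate 1), BC018473 (0.561, replicate 3) and Eci2 (0.538, replicate 5).

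At 26 named probes the genotype difference itself differed between diets, tested as an interaction in limma. Given as the difference on the CTRL diet minus that on the HFD, the value was positive for Sult2a7 (3.36), 2410089E03Rik (2.84), Cdkn1a (2.07), Cyp4a14 (1.96), Acot1 (1.94), Serpinb1a (1.82), Fitm1 (1.81), Gm31025 (1.21), Cyp2g1 (1.13), Ccng1 (1.098), Sult1b1 (1.09), Tpmt (1.00), Acot11 (0.93), Nlrp12 (0.79), Rxrg (0.72), Alas2 (0.71), Sugct (0.59), the Ppara probe A_55_P2055854 (0.43) and Acot8 (0.34). It was negative for Cyp39a1 (-3.54), Fgf21 (-2.65), Socs2 (-2.37), Txnip (-0.91), Pck2 (-0.88), Wdfy1 (-0.34) and Rps13 (-0.24). The number of such probes over the whole array moved with the array weights and the wash term.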

How the results depend on the processing

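Refitted under each alternative, the 142 named probes gave 4149 differences on the same side of the threshold and 111 that lost their call, and 0 called differences changed sign. Most losses fell within wash batch 1 (30 probes) and wash batch 2 (28), which hold 4 mice a group, and without array weights (13). The number of probes called between Pparα-/- and WT mice was 11409 and became 7263 and 6348 within the batches, 7852 at an adjusted p of 0.01, and 10097 to 11777 on leaving out each mouse in turn. The count between the knockouts was 8401, 2546 within wash batch 1 and 7043 to 8440 without single mice. The count whose genotype difference depended on diet moved most of these 3, 4781 against 2528 without the filter, 1740 without array weights, 3099 without a wash term and 1278 and 892 within batches, and 3466 to 5509 without single mice. A block for the replicate number gave 10620, 8075 and 4414 in these comparisons. Same-numbered mice deviated with correlations of -0.278 to 0.258, so the numbers do not pair the samples. The cause of these changes was not tested. Probes near background, such as those of Cyp4a14, limit what can be said of a fall.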

Other observations

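Of the gene lists not described above, oxidative phosphorylation had 9 of 76 genes higher and 11 lower in Pparα-/- than in WT mice on the CTRL diet, and the proteasome 4 of 38 higher and 9 lower. Without WT replicate 1, 4 of the oxidative phosphorylation genes were lower, and without Pparα-/- replicate 1, 15 of the proteasome genes were lower. Leaving out WT replicate 3 brought the higher ones to 6 and 2. Membrane transporters of the liver were higher in 5 and lower in 4 of 27, and lipoprotein genes higher in 2 and lower in 4 of 22. Liver transcription factors were higher in 4 and lower in 8 of 31 (lower in 4 without Pparα-/- replicate 6), Nrf2 targets and metallothioneins higher in 4 and lower in 1 of 21 (lower in 2 without Pparα-/- replicate 6), iron genes higher in 3 and lower in 3 of 21, and clock genes higher in 2 and lower in 3 of 19 (1 and 1 without WT replicate 3). Male-biased genes were higher in 7 and lower in 4 of 28 (higher in 4 without Pparα-/- replicate 6). Female-biased genes were higher in 5 and lower in 5 of 27. Of 7 tested genes of the serpin cluster around Serpinb1a, 4 were called higher and 1 lower (0 lower without Pparα-/- replicate 4). Over all genes 19% were called higher and 18.5% lower.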
